A study of Mus musculus with 4 samples.

Results

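The integrated stress response genes described here are 8 genes, Atf4, Ddit3, Atf3, Trib3, Chac1, Asns, Sesn2 and Hspa5, of 20284 genes that could be named on the array. They were taken as a list of symbols and found through the RefSeq accession of each probe. The 8 genes had 9 probes, 1 each except for Atf4 with 2, and the main probe of Atf4 was the one with the higher mean signal over the arrays. All 8 genes were well above background in all pools, as were 13936 of the 20284 genes. The list was chosen by the role of its genes in the pathway with CB-NP minus control differences of these same 4 arrays in view, among them the male difference of Chac1, so the differences below describe its members and carry no independent support.

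Spleen RNA came from 5-day-old offspring of ICR mice, an outbred stock. In the exposed groups the dams had received carbon black nanoparticles (CB-NP), very small particles of nearly pure carbon, at 95 microg/kg through the nose on gestational days 5 and 9. Control dams were given distilled water instead, at 1 mL/kg on those days. RNA was pooled within each group before labelling, and the 4 pools (male CB-NP, male control, female CB-NP and female control) were each read on 1 single-colour array, so no difference within a sex has a replicate check. The number of animals in a pool was not given in the sources used here.

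Cells under amino acid shortage, misfolded protein in the endoplasmic reticulum, haem shortage or viral RNA phosphorylate the translation factor eIF2, which lowers protein synthesis in general and favours translation of Atf4 mRNA. The transcription factor ATF4 then switches on genes of amino acid supply and stress defence, among them Trib3, Chac1, Asns and Sesn2, and induces the factors ATF3 and CHOP (encoded by Ddit3). Because ATF4 is controlled largely at translation, the level of its mRNA is a poor reading of its activity, and its target genes are commonly read in its place. Hspa5 encodes BiP, the main chaperone of the endoplasmic reticulum, and responds chiefly to the unfolded protein response.

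Across the list, Chac1 stood apart in the male pools and Trib3 was higher with CB-NP in both sexes. Chac1 was 2.41-fold higher in the male CB-NP pool than in the male control and 1.15-fold higher in the female CB-NP pool than in the female control. Trib3 was 1.40-fold and 1.54-fold higher in the same comparisons. In females, Atf3 was lower with CB-NP by 1.80-fold. For the regulators above these genes, the differences of Ddit3 were 0.03 in males and 0.02 in females, and the 2 probes of Atf4 gave 0.0046 and -0.06 in males and 0.02 and -0.41 in females.

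Promoter sequences show which members carry a recognisable response element near their start. They were taken from RefSeq (GRCm38.p6, 250 bases before to 50 after the start of each gene), and all 8 members matched. The composite element that ATF4 binds with C/EBP proteins was searched as TGATGNAA on both strands, the cyclic AMP response element by its full palindrome, and the endoplasmic reticulum stress element as CCAAT followed by 9 bases and CCACG, also on both strands. The first of these was found in 4 of 8 member promoters, those of Chac1, Atf3, Asns and Trib3, beside 3.97% of all 32851 promoter windows. The endoplasmic reticulum stress element was found in the Hspa5 promoter only, beside 0.119% of all windows. The list was chosen by role in this pathway, so shares above those of all windows carry no independent support. No member promoter held the cyclic AMP response element, which occurs in 1.79% of all windows. The windows of Atf4, Ddit3 and Sesn2 held none of the 3 sequences, which says only that these letters are absent there. The sequences below run 5′ to 3′ on the strand of the gene, with the matches in capitals. Chac1 is shown from 250 to 1 base before its start (chr2:119350992-119351241, plus strand), Atf3 (chr1:191183376-191183503, minus strand), Asns (chr6:7693210-7693292, minus strand) and Hspa5 (chr2:34771965-34772089, plus strand) around their match, and Trib3 (chr2:152344028-152344057, minus strand) as the site behind its start with its flanks.
Chac1: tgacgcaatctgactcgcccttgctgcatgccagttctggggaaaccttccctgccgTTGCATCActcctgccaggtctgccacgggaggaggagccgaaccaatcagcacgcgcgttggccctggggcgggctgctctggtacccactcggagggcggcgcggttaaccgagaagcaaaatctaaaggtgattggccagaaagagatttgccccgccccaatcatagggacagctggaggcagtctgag
Atf3: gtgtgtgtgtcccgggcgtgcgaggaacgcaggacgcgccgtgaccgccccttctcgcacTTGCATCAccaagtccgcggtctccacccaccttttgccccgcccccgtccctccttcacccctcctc
Asns: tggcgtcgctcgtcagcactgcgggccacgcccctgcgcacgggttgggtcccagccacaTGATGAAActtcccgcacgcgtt
Trib3: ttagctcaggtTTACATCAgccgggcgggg
Hspa5: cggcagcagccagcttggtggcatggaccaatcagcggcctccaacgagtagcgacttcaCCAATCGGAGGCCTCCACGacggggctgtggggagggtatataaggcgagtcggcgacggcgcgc
The same 8 letters, TTGCATCA, stood in the Chac1 promoter at positions -193 to -186 and in the Atf3 promoter at -110 to -103 relative to the start. Asns held TGATGAAA at -23 to -16 and Trib3 TTACATCA at 15 to 22 behind its start. A match is a description of the sequence and not evidence of binding in these spleens, and the 4 genes that share it did not share a difference: past the scanner error were Chac1 in males and Trib3 in both sexes, higher with CB-NP, and Atf3 in females, lower, while both differences of Asns lay within it.

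Levels below are log2 processed signals minus the 75th percentile of the same array, so that 0 is that percentile. Each error is the scanner's own error for the spot, carried into the difference, and covers the reading of the array only. Levels of different genes come from different probes and are not set against each other. All 4 arrays lay on 1 slide, each in its own position, so that position and group cannot be told apart. Of the non-control spots, between 57.3% and 59.0% were well above background per array and none was saturated. All 9 genes of a spleen list, including the leukocyte gene Ptprc, the red pulp macrophage gene Spic and the spleen patterning gene Tlx1, were well above background in all 4 pools.

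Among the transcription factors, Atf4 had log2 levels of 7.05 in the male CB-NP pool and 7.04 in the male control, and of 7.05 in the female CB-NP pool and 7.03 in the female control. The differences were 0.0046 in males and 0.021 in females, each with a scanner error of 0.20, and the 4 pools were level on this probe. With quantile normalization this probe gave 0.11 and 0.12. The second probe of Atf4 gave 1.83 in the male CB-NP pool and 1.89 in the male control, and 1.73 in the female CB-NP pool and 2.13 in the female control. Its differences were -0.06 and -0.41, so in females the 2 probes of the gene disagreed by more than their scanner error.

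Ddit3, whose product CHOP promotes cell death under lasting stress, stood at 1.07 in the male CB-NP pool and 1.04 in the male control, and at 1.07 in the female CB-NP pool and 1.05 in the female control. Its differences of 0.03 and 0.02 were 0.157 and 0.0874 times the scanner error. No pool of Ddit3 stood apart from the others. Its female difference ran from -0.09 with median centring to 0.11 with the authors' table.

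Atf3, a factor of the same family that is induced by many kinds of stress and by immediate early signals, had signals of 42.5 and 45.6 intensity units in the male CB-NP and male control pools and 33.5 and 74.5 units in the female CB-NP and female control pools. The lowest signals called well above background on these arrays were 8.57, 9.17, 9.85 and 10.2 units in the same order. On the log2 scale Atf3 differed by -0.12 in males (scanner error 0.23) and by -0.85 in females (0.24). The female control pool was the high one, being 0.48 above the male control, whereas the female CB-NP pool was 0.24 below the male CB-NP pool. With normexp background correction the female difference was -0.23, less than a 1.5-fold difference, and the male difference was 0.0031. A female difference at least as low as that of Atf3 was seen in 103 of 14076 genes (0.732%).

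Immediate early genes, which respond to tissue handling as well as to signals, were given beside Atf3 because it is induced with them. All 7 were well above background in all pools. Above 0 were 6 of 7 in males and 3 of 7 in females, beside 45.2% and 43.3% of all genes. Their medians were 0.05 and -0.02 (0.07 in females with the authors' table). Fosb was the one gene past 1.5-fold, higher by 0.91 in the male CB-NP pool (1.87-fold) and by 0.11 in the female CB-NP pool. With normexp no gene of the list was past 1.5-fold (highest male difference 0.43), and with median centring or quantile normalization 1 was past it downward in females. Their summed level, in multiples of the array's 75th percentile, was 8.11 in the male CB-NP pool and 7.66 in the male control, and 7.17 in the female CB-NP pool and 7.36 in the female control. Fos was at 0.05 in males (scanner error 0.08) and -0.51 in females (0.07), with a signal of 68.1 units in the female control. Between the controls Fos was 0.80 higher in females, and 6 of 7 genes of the list were higher there (52.4% of all genes). The part of the immediate early genes in the Atf3 and Chac1 values was not tested.

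Trib3, a pseudokinase that ATF4 and CHOP induce and that restrains both ATF4 and the kinase AKT, had log2 levels of 1.08 in the male CB-NP pool and 0.59 in the male control. In females it stood at 0.99 in the CB-NP pool and 0.37 in the control. Both CB-NP pools lay above both control pools. The differences were 0.49 in males and 0.62 in females, 2.40 and 3.04 times the scanner error of 0.20, and the female control was at -0.22 relative to the male control. Of 13936 genes compared in both sexes, 225 (1.61%) had both differences at least as high as the smaller one of Trib3, a threshold set after its values were seen.

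Chac1, an enzyme that degrades glutathione and a target of the ATF4, ATF3 and CHOP cascade, had signals of 379 and 155 intensity units in the male CB-NP and male control pools and of 168 and 181 units in the female CB-NP and female control pools. The corresponding log2 levels were 0.16 and -1.11 in males and -0.92 and -1.11 in females. A single pool, male CB-NP, stood above the other 3, which spanned 0.20 on the log2 scale. The male difference was 1.27, or 6.20 times its scanner error of 0.20, and 16 of 14188 genes (0.113%) were at least as high in that comparison. The female difference was 0.20, within its scanner error of 0.21. Between the controls the gap was -0.0030 (female minus male). The male minus female gap between the CB-NP differences was 1.07 (scanner error 0.29). A gap of at least 1 in this direction was seen in 93 of 13936 genes (0.667%), and with 1 pool per group it could not be tested.

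**Figure D1:**
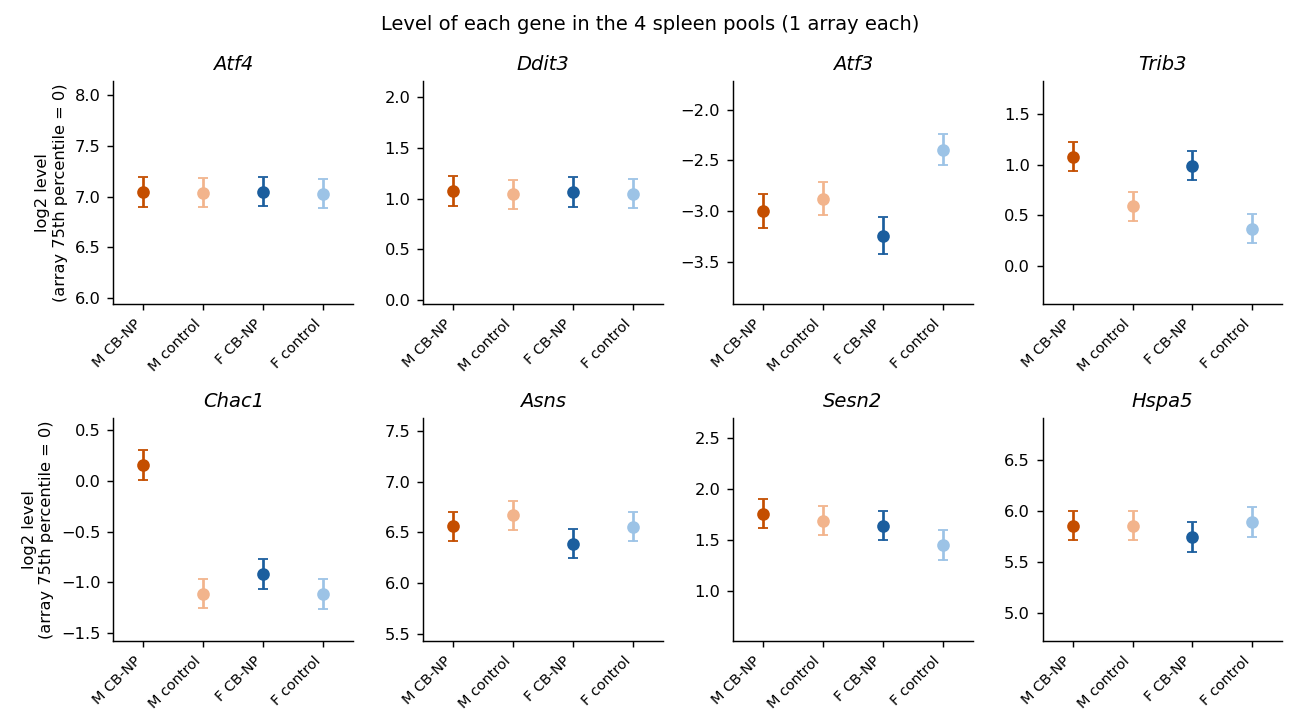
Log2 level of each of the 8 genes (y axis, array 75th percentile at 0, each panel spanning 2.2 log2 units) in the male CB-NP (M), male control, female CB-NP (F) and female control pools (x axis). Points are single arrays and bars are 1 scanner error. Chac1 stands at 0.16 in the male CB-NP pool and between -1.11 and -0.92 in the other pools, and Trib3 is higher in both CB-NP pools.

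Asns, the asparagine synthetase gene and a standard reading of ATF4 activity, had log2 levels of 6.56 in the male CB-NP pool and 6.67 in the male control, and of 6.39 in the female CB-NP pool and 6.56 in the female control. Its differences were -0.11 and -0.17, both within the scanner error of 0.20. Asns thus lay on the other side of 0 from Trib3 in both sexes.

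Sesn2, which signals amino acid shortage to the growth regulator mTORC1, stood at 1.76 in the male CB-NP pool and 1.69 in the male control, and at 1.64 in the female CB-NP pool and 1.45 in the female control. The differences were 0.07 and 0.19, within the scanner error of 0.20. The gap between the controls, -0.24 (female minus male), was larger than either. Its relative Sesn3 was 1.56-fold higher in the male CB-NP pool (0.64, scanner error 0.20) and 2.01-fold higher in the female CB-NP pool (1.01, 0.20). Sesn3 levels were -0.25 in the male CB-NP pool and -0.89 in the male control, and -0.19 in the female CB-NP pool and -1.20 in the female control, so both CB-NP pools lay above both controls.

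Hspa5 had log2 levels of 5.86 in the male CB-NP pool and 5.86 in the male control, and of 5.74 in the female CB-NP pool and 5.89 in the female control. The differences were 0.00077 and -0.15, within the scanner error of 0.20. Secretory cells hold much of this chaperone, and markers of the pancreatic acinar cell were far lower in both CB-NP pools. Of 18 acinar genes, Ctrb1 among them at -6.15 in males and -4.65 in females, 8 were well above background in each CB-NP pool and 15 in each control pool. Among the genes that could be compared, 7 of 8 in males and 7 of 8 in females were at least 2-fold lower, beside 0.507% and 0.433% of all genes. Their medians were -4.30 and -3.78, and -2.56 and -2.25 with normexp. The summed level of the 18 genes, in multiples of the array's 75th percentile, was 1.87 in the male CB-NP pool and 28.6 in the male control, and 1.88 in the female CB-NP pool and 22.2 in the female control. The part of these cells in the Hspa5 values was not tested. Whether the pancreatic RNA came from the spleen itself or from tissue collected with it was not tested. In RNA of a whole organ, fewer cells of a type and less RNA per cell cannot be told apart.

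**Figure D2:**
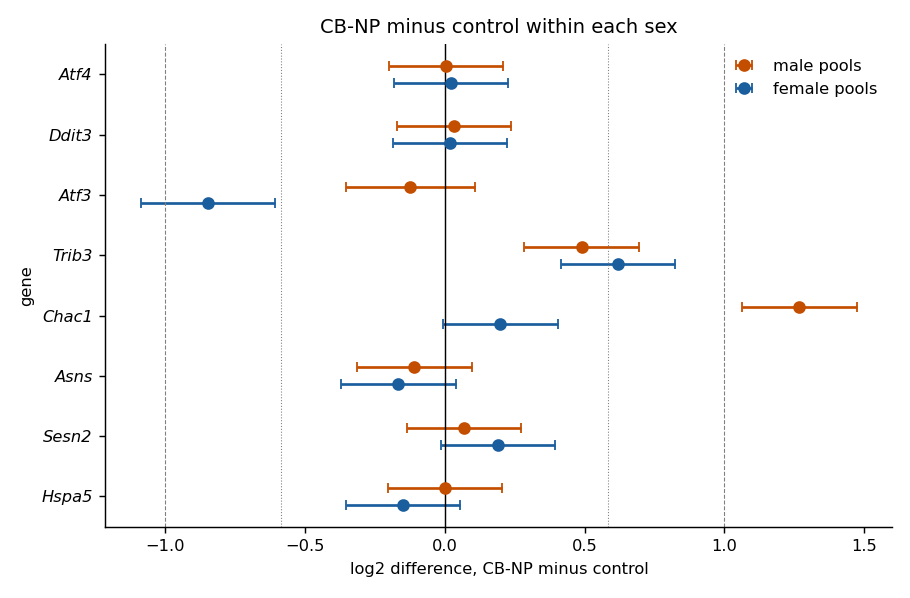
Log2 difference, CB-NP minus control (x axis), of each gene (y axis) in the male and the female pools, with bars of 1 scanner error. Dotted lines mark 1.5-fold and dashed lines 2-fold. Chac1 in males (1.27) is past 2-fold, Trib3 (0.62) and Atf3 (-0.85) in females are past 1.5-fold, and 6 of 8 genes in each sex lie within 1 scanner error of 0.

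In the male pools, 1 of 8 members (Chac1) was at least 1.5-fold higher with CB-NP and none was 1.5-fold lower, beside 2.57% and 2% of the 14188 genes compared. Chac1 was also past 2-fold, as were 0.352% of genes in that direction, and no member was 2-fold lower, beside 0.507% of genes. In the female pools, 1 of 8 (Trib3) was at least 1.5-fold higher and 1 (Atf3) 1.5-fold lower, beside 4.38% and 2.51% of 14076 genes, and no member was past 2-fold, beside 0.661% of genes higher and 0.433% lower. With normexp neither Trib3 (0.44) nor Atf3 was past 1.5-fold in females, and with median centring Trib3 (0.51) was not. Differences above 0 were found for 6 members in the male pools and 5 in the female pools, beside 45.2% and 43.3% of all genes. The median of the members was 0.02 in each sex, beside medians over all genes of -0.02 in males and -0.04 in females. Between the unexposed pools of both sexes, no member was past 1.5-fold (1.53% of 14165 genes were higher in females and 2.53% lower), 3 of 8 were higher in females (52.4% of all genes), and their median was -0.0071. With median centring Atf3 (0.60) was past 1.5-fold there, and 6 of 8 were higher in females. This last comparison uses the same control arrays as the exposure comparisons.

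**Figure D3:**
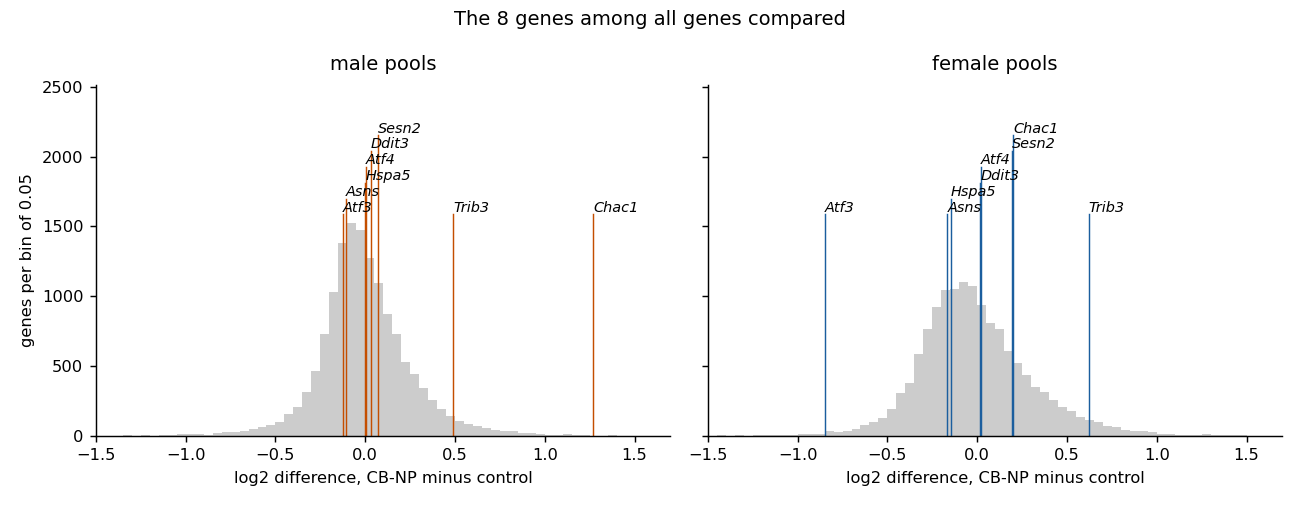
Histogram of the log2 differences, CB-NP minus control (x axis), of all genes well above background on both arrays of a pair (y axis, genes per bin of 0.05), with a line at each of the 8 genes. Beyond the axis lay 36 genes in males and 40 in females. Trib3 in both sexes, Chac1 in males and Atf3 in females lie in the tails, and the others lie in the bulk.

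A limma model with treatment and sex, fitted over 14503 genes with 1 residual degree of freedom, gave the test of treatment over both sexes. For each gene the residual holds only the gap between the male and female differences. The p values therefore carry no spread between pools of the same group. It called 12 genes (0.0827%) at an adjusted p of 0.05 after Benjamini-Hochberg adjustment and none of the 8 members, of which 1, Trib3, had an unadjusted p under 0.05, as had 13.7% of all genes. The treatment effect of Trib3 was 0.55, higher in 2 of 2 pairs (unadjusted p = 0.0068, adjusted p = 0.307 by limma). The effect of Chac1 was 0.73 (adjusted p = 0.389 by limma, higher in 2 of 2 pairs) and that of Atf3 was -0.48 (adjusted p = 0.399, lower in 2 of 2 pairs). Of these pairs, the female one of Chac1 (0.20) and the male one of Atf3 (-0.12) lay within the scanner error. The other 5 members had adjusted p values in limma between 0.490 and 0.950. With normexp background correction limma called Chac1 (0.55, adjusted p = 0.00093) and Trib3 (0.47, adjusted p = 0.0089), when it also called 4.22% of all genes. The normexp differences of Chac1 were 1.00 in males and 0.10 in females, so this effect came mostly from the male CB-NP pool. With an intensity trend limma called Trib3 (adjusted p = 0.030) among 2.62% of all genes. Over the 9 settings run, adjusted p ranged from 0.00093 to 0.705 for Chac1 and from 0.0089 to 0.705 for Trib3. The list was drawn up with the male difference of Chac1 known, so its values are no independent evidence.

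**Figure D4:**
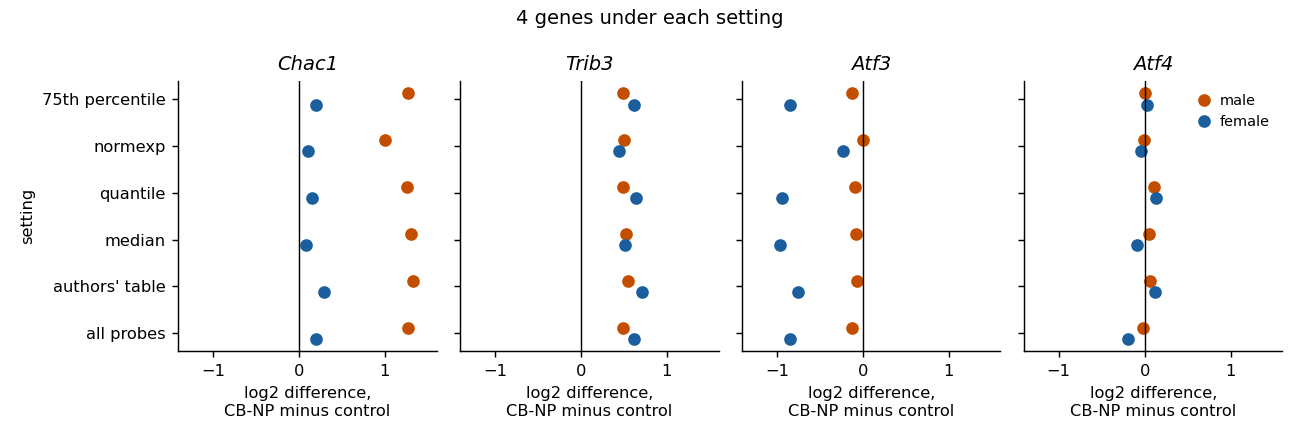
Log2 difference, CB-NP minus control (x axis), of Chac1, Trib3, Atf3 and Atf4 in the male and female pools under 6 settings (y axis): the 75th percentile, normexp background correction, quantile normalization, median centring, the authors' value table and the mean of all probes of a gene. Chac1 in males stays between 1.00 and 1.33 and Trib3 between 0.44 and 0.71 in both sexes, while Atf3 in females runs from -0.96 to -0.23.

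The gene with the widest range over the 4 pools was Chac1 (1.27), and the genes nearest to it by Euclidean distance of mean-centred log2 levels over the 4 pools were, of 13936 searched, Galk2, Apol10b, Tcp11l1, Zfp108 and Pfn4, at distances of 0.19, 0.25, 0.25, 0.26 and 0.29. Each was high in the male CB-NP pool, with male differences between 0.93 and 1.22, and had female differences between -0.17 and 0.46. Further probes of Galk2 (0.47 in males and -0.42 in females) and Apol10b (0.84 and 0.88) gave other patterns. With 4 points, many genes can lie this close by their shared high value in 1 pool.

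The genes around the 8 members were described by lists, chosen with earlier results known. The list counts above 0 stand beside 45.2% of all genes in males and 43.3% in females. The eIF2 kinases and the subunits of eIF2 and its exchange factor eIF2B, the sensors and the target of the pathway, had 11 measured genes with medians of -0.17 in males and -0.30 in females, and 3 of 11 and 2 of 11 were above 0. The kinase gene Eif2ak3, which encodes PERK, was at 0.35 in males and 0.03 in females. Eif2b3, a subunit of eIF2B, was the one member past 1.5-fold, lower by 0.80 in females (1.74-fold) and by 0.40 in males, and its other probe gave -0.77 and -0.46.

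The feedback genes of the pathway, which restore translation, held 5 measured genes with medians of -0.09 in males and 0.01 in females. None of them was past 1.5-fold in either sex. Ppp1r15a, which directs a phosphatase to eIF2 and is induced by ATF4 and CHOP, was at -0.29 in males and -0.07 in females, and Eif4ebp1, a translation inhibitor, at -0.09 and -0.21.

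Further targets and partners of ATF4 and CHOP had medians of 0.11 over 10 measured genes in males and -0.12 over 11 in females. None of the 10 was past 1.5-fold in males, where the values ran from -0.57 to 0.24 with 7 of 10 above 0. Cth, an enzyme of cysteine synthesis, was lower with CB-NP by 1.70-fold in females (-0.77, scanner error 0.33), with signals of 15 and 31.6 units in female CB-NP and female control, near background. In males Cth was 0.77 higher in the CB-NP pool (scanner error 0.44), with signals of 16.5 and 9.51 units. It was not well above background in the male control. Another Cth probe gave 0.44 in males and 0.29 in females, so the direction in females depended on the probe. With normexp no measured gene of this list was past 1.5-fold in females.

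Enzymes of serine, glycine and proline synthesis and amino acid transporters, a group that ATF4 induces together, had medians of -0.12 over 13 measured genes in males and -0.13 over 14 in females. Above 0 were 2 of 13 and 0 of 14, against 5 and 4 with the authors' table and 5 and 3 with quantile normalization, and none of those measured in both pools was past 1.5-fold. The glycine transporter gene Slc6a9 was at -0.08 and -0.03, and Slc3a2, the heavy chain of several amino acid transporters, at -0.05 and -0.13. Slc7a11, the cystine transporter gene, was well above background in the female CB-NP pool only, at 13.4 units, where it was at least 1.62-fold higher than in the female control, and it was not compared in males. Slc7a3, a transporter of cationic amino acids, was 0.75 higher in the male CB-NP pool (scanner error 0.43) than in the male control. Its signals were 15.4 and 9.01 units, and in the male control it was not well above background. In females its difference was -0.43 (scanner error 0.33), with signals of 14.4 and 24 units in the CB-NP and control pools.

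Cytosolic aminoacyl-tRNA synthetases, which charge tRNAs and are also ATF4 targets, lay below 0 in all 12 measured genes in both sexes. Their medians were -0.15 in males and -0.20 in females. Of all genes, 45.2% in males and 43.3% in females lay above 0, with medians of -0.02 and -0.04. The values ran from -0.37 to -0.0042 in males and from -0.31 to -0.03 in females, and none was past 1.5-fold. Gars was at -0.17 and -0.16 and Aars at -0.18 and -0.19, each with a scanner error of 0.20. The side of 0 depended on the scaling for some of them: with quantile normalization 2 of 12 lay above 0 in males and 3 of 12 in females, with medians of -0.08 and -0.12.

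The other branches of the unfolded protein response and the chaperones beside Hspa5 had 21 measured genes, with medians of 0.06 in males and -0.17 in females. Above 0 were 13 of 21 in males and 5 of 21 in females, and none was past 1.5-fold. The chaperone genes with the highest signal were Pdia6 (-0.00062 and -0.17) and Canx (-0.11 and -0.15), and another Pdia6 probe gave 0.02 and -0.39. Among the relatives of the 8 genes, Sesn3 was the one of 10 past 1.5-fold, in both sexes, though with normexp none was in males (highest 0.44), and the medians were 0.0066 and -0.02. The female median changed side with quantile normalization (0.02) and the authors' table (0.08).

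**Figure D5:**
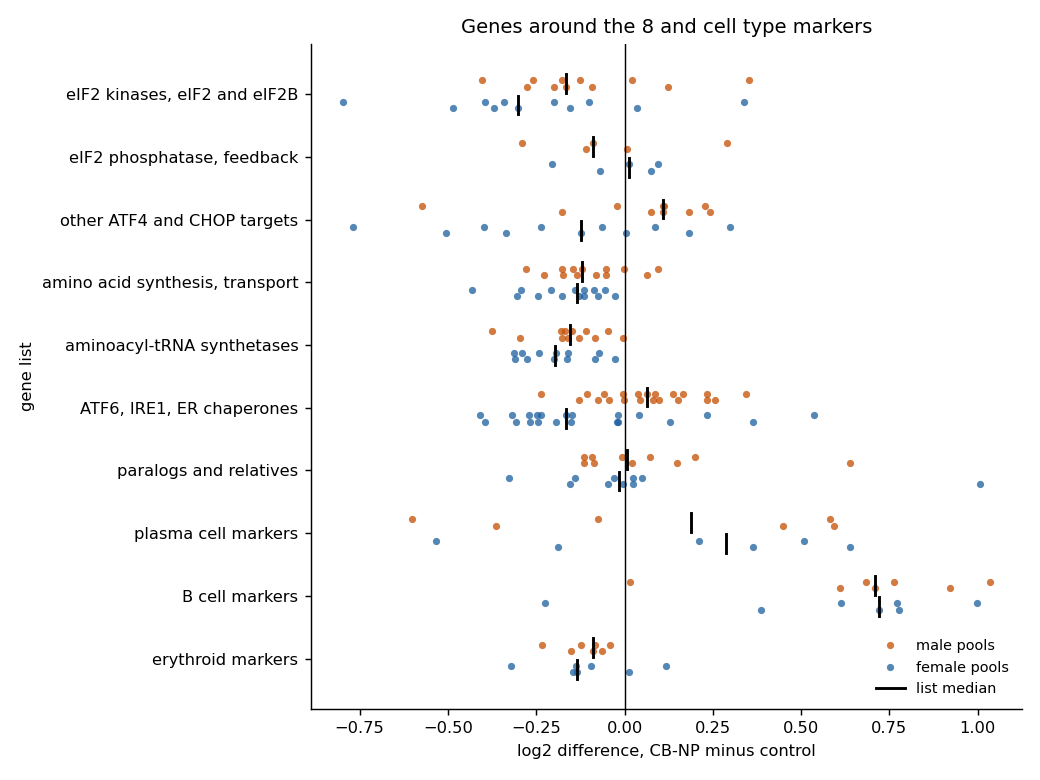
Log2 difference, CB-NP minus control (x axis), of the measured genes of 10 lists (y axis) in male and female pools, 1 point a gene, with the list median as a bar. The synthetases lie below 0 with this scaling (medians -0.15 and -0.20), and B cell markers lie higher (0.71 and 0.72).

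Markers of B cells and eosinophils differed between CB-NP and control in both sexes. Of 7 B cell genes, 6 were at least 1.5-fold higher in the male CB-NP pool and 5 in the female CB-NP pool, beside 2.57% and 4.38% of all genes, with Ms4a1 at 0.92 and 0.61. With normexp the counts were 4 and 3 of 7. Their summed level was 96.1 in the male CB-NP pool and 57.0 in the male control, and 89.2 in the female CB-NP pool and 54.5 in the female control. All 7 were well above background in each pool. The list of 8 plasma cell genes, cells with a strong unfolded protein response, had 6 genes measured, with medians of 0.19 and 0.29. Its genes lay on both sides of 0: Mzb1 was at 0.59 and 0.64 and Jchain at -0.60 and -0.53. Their summed level was 12.4 in the male CB-NP pool and 9.70 in the male control, and 10.9 in the female CB-NP pool and 7.98 in the female control. Most of this sum was the single gene Mzb1. It gave 2937 of 4232 intensity units in the male CB-NP pool and 1916 of 3251 in the male control. In the female CB-NP pool it gave 2455 of 3455 units, and in the female control 1951 of 3130. Erythroid genes, the bulk of a young spleen, had medians of -0.09 and -0.13 over 7 genes. Their summed level was 825 in the male CB-NP pool and 923 in the male control, and 864 in the female CB-NP pool and 867 in the female control. All 6 eosinophil genes were at least 2-fold lower with CB-NP in both sexes, beside 0.507% of all genes in males and 0.433% in females, and their summed level was 8.89 in the male CB-NP pool and 31.8 in the male control, and 17.2 in the female CB-NP pool and 62.3 in the female control. The part of these cells in the values of the 8 members was not tested.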

How the data were processed

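Spleen RNA pools of 4 groups were read on 1-colour (Cy3) Agilent arrays, 1 per group, which limits the precision. Per the file headers, the authors used Agilent Feature Extraction 10.10.1.1 on design 028005 (build mm9). The deposited processed signal is an intensity on a linear scale, background-subtracted and detrended within the array and not normalized between arrays. Per the file headers, other deposited values are the raw median intensities and flags of 0 or 1. The authors' value table, also an intensity, was the processed signal multiplied by a fixed factor for each array, of 3.18 (male CB-NP), 3.10 (male control), 3.49 (female CB-NP) and 2.64 (female control). Its column medians were 76.1, 75.2, 79.4 and 68.9, and the target of its scaling is not given in the sources used here.

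Log2 processed signals of 59305 non-control spots were centred on each array's 75th percentile. Outlier spots were left out before spots of the same probe were averaged. Of 55681 probes, 26762 matched 20284 genes by accession (RefSeq names, GRCm38.p6), and a gene took its probe with the highest mean signal. Differences were compared where both arrays were well above background. Otherwise a bound against the lowest level called so was given, or the plain difference where the undetected pool's own level was no lower than that. limma (3.58.1, R 4.3.3) used treatment and sex for genes detected above background by 2 or more arrays. In simulated pools of 14503 genes the share recovered was 2% for 100 genes given a change of 1 (log2) and 74% for 100 given a change of 2, and 1 of 77 calls was false. The simulated noise was independent between pools and drawn from the variance that the model itself had fitted. Each change was the same in both sexes, and no sex effect was added. The few false calls follow from this setting and do not describe the real pools. Python 3.11.15 was used for the rest. Alternatives were normexp (offset 50), quantile normalization, median centring, the authors' table, all probes, other filters and an intensity trend.

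Members and lists were chosen with earlier results of these data known. Besides the 8 members, the text names genes from each list (up to 5 past 1.5-fold in either sex, or otherwise the 2 with the highest signal), and the 5 genes nearest to the member with the widest range. Ptprc, Spic, Tlx1, Fos, Eif2ak3, Slc7a11 and Slc7a3 were named outside this rule, after their values were seen. The sums of marker lists include genes below background.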

Additional observations from a re-analysis of the deposited data

Results flagged for a closer look

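Among the members and the list genes measured in both sexes, 4 genes differed in opposite directions in the male and female pools, each by more than its scanner error, and none was a member. The share of all genes that meet this rule is not given here, so these counts cannot be read as many or few. The difference between the sexes was not tested, since each group is 1 pool. Ern1, the gene of the sensor IRE1, was at -0.24 in males and 0.54 in females (male minus female -0.77). Its CB-NP pools stood at 0.06 in males and 0.10 in females, and its controls at 0.29 and -0.44. The gap between its controls, -0.73 (female minus male), was larger than either difference. Dnajb9, a chaperone gene that IRE1 signalling induces, was at 0.23 and -0.41 (0.64), but another probe of it gave 0.22 and -0.01. Creld2, an endoplasmic reticulum stress gene, was at 0.10 and -0.27 (0.37), with a scanner error of 0.065 in each sex. Cela1, on the pancreatic list, was at 0.205 and -0.59 (0.79), barely past its scanner error of 0.204 in males. Its female control was 0.65 above the male control.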

How the results depend on the processing

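No pairing beyond sex was possible because each group is 1 pool and the pools carry no replicate numbers. Pools are matched by sex alone, which the limma model holds as a term. Leaving out a pool would leave limma without a residual degree of freedom. Of 120 member differences under the 5 other scalings and probe rules, 116 moved by no more than the scanner error. With normexp the male difference of Chac1 was 1.00, the female difference of Atf3 -0.23 and the control gap of Atf3 0.20, and with all probes averaged the female difference of Atf4 was -0.19. Much of the count of 116 was fixed by the settings. Averaging probes leaves genes with 1 probe unchanged, and median centring and the authors' table shift all genes of an array by about the same amount. Besides the probe average of Atf4, only normexp and quantile normalization could move single genes apart. The median of the 8 genes moved by less than the scanner error under each. Median centring moved the median of all genes by -0.11 in the female comparison and by 0.12 between the controls.

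The number of genes called by limma, 2 higher and 10 lower, depended on the setting. It was 359 and 253 with normexp, 0 and 3 with quantile normalization, and 171 and 173 with median centring. With the authors' table it was 0 and 2, with an intensity trend 227 and 153, and with all probes averaged 1 and 7. It was 0 and 0 both for genes well above background on all 4 arrays (2113 at an unadjusted p under 0.05) and with no detection filter (1363). Members near 0 changed sign in the limma effect: Atf4 was -0.027 with normexp, -0.023 with median centring and -0.11 with all probes, Ddit3 was -0.011 with median centring, and Hspa5 was 0.039 with quantile normalization and 0.0055 with the authors' table. The cause was not tested. Genes at least 2-fold higher and lower in males numbered 50 and 72, but 11 and 24 with normexp, and 69 and 61 with the authors' table. In females they were 93 and 61, but 20 and 30 with normexp, 77 and 79 with quantile normalization, 65 and 88 with median centring and 140 and 50 with the authors' table.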
